A study of Mus musculus with 6 samples.

Results

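The annexins are a family of calcium-dependent phospholipid-binding proteins, and the data on 10 of their genes are described here: Anxa1, Anxa2, Anxa3, Anxa4, Anxa5, Anxa6, Anxa7, Anxa8, Anxa9 and Anxa11. Members were chosen by gene symbol, and all 10 were found among the 56748 genes of the table. RNA had been sequenced from primary basal cells of the airway, grown from tracheas of wild-type mice and kept in culture with inhibitors for 4 days. Of the 6 libraries, 3 came from cells given UK-5099, an inhibitor of the carrier that brings pyruvate into mitochondria. The other 3 came from cells kept in a mixture called the 3 inhibitors below: Y-27632, a kinase inhibitor, with A8301 and DMH-1, which block TGF-beta type I receptors and BMP type I receptors in that order. The pair A8301 and DMH-1 makes up the dual SMAD inhibition named in the study's title. The labels used here state neither age or sex of the mice nor doses, and do not say whether replicates were separate animals or cultures. P-values therefore measure the spread between these libraries, which may be technical. With no untreated group, a difference does not show which condition moved.

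Annexins share a core of repeated domains that bind calcium and, through it, acidic phospholipids of membranes, and each carries its own N-terminal tail. The tail gives each annexin its partners, among them small S100 proteins that bind calcium themselves. In epithelial cells annexins are known for sealing torn plasma membrane, for vesicle traffic and for linking membrane to the actin cytoskeleton. Anxa1 also leaves the cell and acts on formyl peptide receptors, where it limits inflammation.

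The family split evenly. With UK-5099, Anxa8, Anxa9, Anxa2, Anxa7 and Anxa1 were higher and Anxa6, Anxa11, Anxa4, Anxa5 and Anxa3 lower. All 10 members passed the filter on low values, a mean of at least 10 normalized counts (read counts divided by a size factor per library), and limma called all 10, 5 in each direction, at a threshold of 0.05 on the p-value adjusted by Benjamini-Hochberg over the table. The background was high: 53.8% of the 15704 genes tested were called, 27.2% higher and 26.6% lower with UK-5099. Libraries of the groups did not overlap for any of the 10 members, nor for 60.8% of the genes tested. The median size of the log2 fold change was 0.55 over the annexins and 0.30 over all genes tested. A difference of at least 2-fold was seen for 3 of 10, Anxa8, Anxa6 and Anxa11, where 10.1% of the genes tested were called at that size. Centring each library on its median lowered log2 fold changes by 0.09, and the share of all called genes that were higher fell from 50.6% to 39.1%. Of the annexins 3 were then called higher and 5 lower, since Anxa1 and Anxa7 lost their calls.

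**Figure D1:**
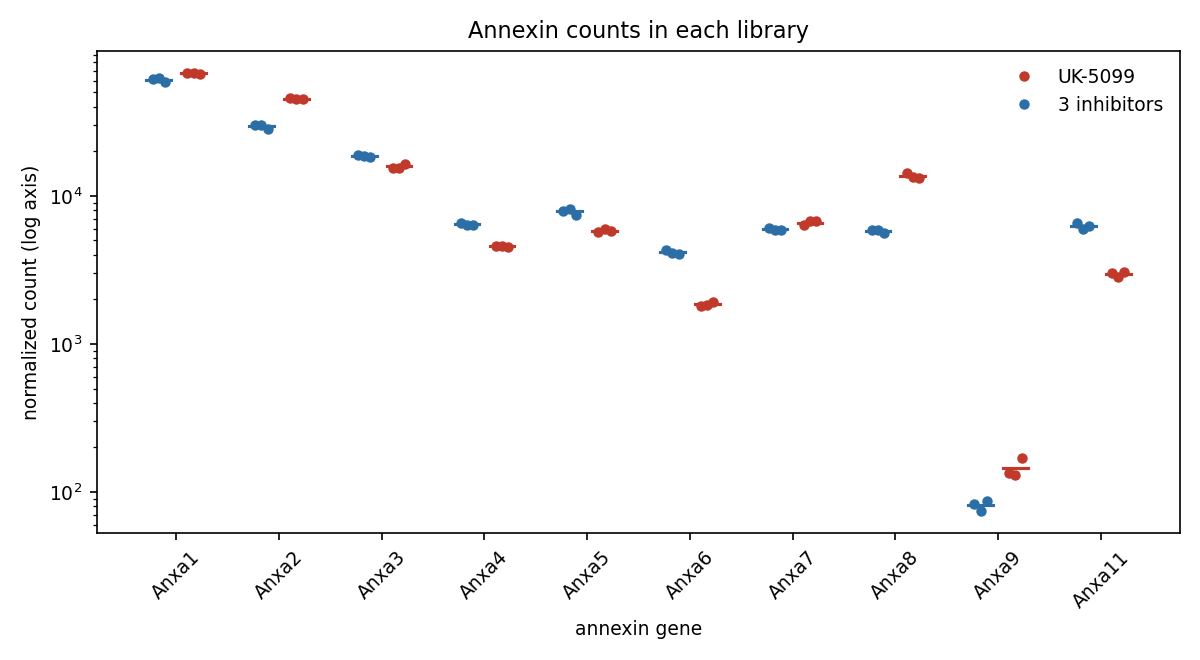
Normalized counts (log axis) of the 10 annexins in each of the 6 libraries; points are libraries and short lines the mean of 3. For every gene the UK-5099 libraries lie to one side of the 3-inhibitor libraries, with the widest gaps for Anxa6, Anxa8 and Anxa11.

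Upstream sequences of 4 members are shown because the results turn on these genes: the 2 most abundant annexins (Anxa1 and Anxa2), the member with the largest rise (Anxa8) and the one with the largest fall among those with an entry (Anxa11). Each runs for 250 bases up to the annotated start, from RefSeq on build GRCm38.p6. Capitals mark matches, on either strand, to 6 motifs: TGANTCA for AP-1, GGAATG for TEAD factors, GGGCGG for SP and KLF factors, CACGTG for E-box factors, CAGAC for SMAD factors and TATAAA for the TATA box. The Anxa1 window is chr19:20390672-20390921 on the minus strand, that of Anxa2 chr9:69453433-69453682 on the plus strand, that of Anxa8 chr14:34085729-34085978 on the plus strand, and that of Anxa11 chr14:25841905-25842154 on the plus strand.
Anxa1: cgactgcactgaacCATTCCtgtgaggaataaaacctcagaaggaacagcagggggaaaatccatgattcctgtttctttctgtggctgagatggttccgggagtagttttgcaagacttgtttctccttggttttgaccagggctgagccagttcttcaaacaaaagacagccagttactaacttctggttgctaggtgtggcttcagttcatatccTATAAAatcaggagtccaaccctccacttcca
Anxa2: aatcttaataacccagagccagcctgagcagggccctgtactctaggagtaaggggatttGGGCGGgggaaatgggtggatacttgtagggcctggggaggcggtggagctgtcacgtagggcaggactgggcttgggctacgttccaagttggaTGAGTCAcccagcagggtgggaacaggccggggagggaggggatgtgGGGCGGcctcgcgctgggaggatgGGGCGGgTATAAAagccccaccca
Anxa8: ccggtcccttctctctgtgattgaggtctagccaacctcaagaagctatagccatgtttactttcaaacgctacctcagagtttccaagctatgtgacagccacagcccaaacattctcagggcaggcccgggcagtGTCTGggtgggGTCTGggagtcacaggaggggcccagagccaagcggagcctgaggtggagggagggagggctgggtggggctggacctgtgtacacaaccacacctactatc
Anxa11: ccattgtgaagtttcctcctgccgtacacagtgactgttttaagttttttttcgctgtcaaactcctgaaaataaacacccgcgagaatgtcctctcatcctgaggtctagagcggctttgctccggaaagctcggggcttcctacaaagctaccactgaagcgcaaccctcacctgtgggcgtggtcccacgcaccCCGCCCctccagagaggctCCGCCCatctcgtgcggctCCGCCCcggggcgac

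RefSeq entries were found for 8 of the 10 members, with 11 windows in all; Anxa3 and Anxa6 were not among them. TATAAA occurred in the windows of Anxa1, from 32 bases before the start, and of Anxa2, from 17 bases before it. It was in 12.4% of the 32817 windows of all genes. The Anxa2 window alone among the 11 held an AP-1 match, 95 bases before the start (6.75% of all windows). SP and KLF matches were seen for Anxa2 (3), for Anxa7 (4 and 1 in its overlapping windows) and for Anxa11 (3). Of all windows 32.7% hold at least 1. Anxa8 had no match but 2 to the SMAD letters, which 42.2% of all windows also hold. Of the 11 annexin windows 5 held these letters, and they belonged to 4 genes, Anxa4, Anxa5, Anxa8 and Anxa9. GC content was 46.0% for Anxa1 and 62.4% for Anxa2, and 58.0% for both Anxa8 and Anxa11. Matching letters are a description of sequence and show no binding.

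Of the members that were higher with UK-5099, Anxa8 differed most. It is an annexin of stratified epithelia, and its counts were 14178, 13413 and 13189 in UK-5099 replicates 1, 2 and 3 and 5901.1, 5928.3 and 5646.5 in 3-inhibitor replicates 1, 2 and 3. The lowest UK-5099 library stood 2.22-fold above the highest of the other group. The log2 fold change was 1.22 ± 0.04 (SE), or 2.33-fold (adjusted p = 1.66e-09).

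Anxa2, which pairs with S100a10 and carries plasminogen and actin at the membrane, was the second most abundant annexin by counts. With UK-5099 its libraries held 45542, 44985 and 45160 normalized counts, and with the 3 inhibitors 30271, 29888 and 28288. All UK-5099 libraries were above all others, the nearest by 1.49-fold, and they varied little among themselves (coefficient of variation 0.63%). The log2 fold change was 0.62 ± 0.04 (1.53-fold, adjusted p = 4.39e-07).

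Anxa9, an annexin whose calcium-binding sites are poorly conserved, was the rarest member. Counts of 135.1, 130.9 and 170.5 with UK-5099 faced 82.5, 74.2 and 86.8 with the 3 inhibitors. Its libraries rested on 80 to 141 reads, against at least 1568 for any other member, and the coefficient of variation with UK-5099 was 15%, the widest among the 10. The 1.77-fold difference had a log2 fold change of 0.83 ± 0.15 (adjusted p = 0.000502).

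Anxa7, also called synexin and known for fusing secretory granules, differed little. Its UK-5099 libraries held 6315.5, 6722.8 and 6765.5 normalized counts and the others 6111.3, 5882.8 and 5884. The nearest libraries of the groups were only 1.03-fold apart. The log2 fold change was 0.15 ± 0.04 (adjusted p = 0.0111), and the call ended under either rescaling, without the variance trend, or without 3-inhibitor replicate 2 (adjusted p = 0.0531).

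Anxa1, the glucocorticoid-induced annexin that restrains inflammation, was the most abundant of all. UK-5099 libraries had 67919, 67239 and 66470 normalized counts, and 3-inhibitor libraries 61578, 62391 and 59093. The groups did not overlap, though their nearest libraries were 1.07-fold apart. The log2 fold change of 0.14 ± 0.05 (adjusted p = 0.0245) came to 0.05 after median centring (adjusted p = 0.365) or upper-quartile rescaling (adjusted p = 0.330). Leaving out single libraries ended the call 5 of 6 times, with adjusted p of 0.0672, 0.0608 and 0.0738 without 3-inhibitor replicates 1, 2 and 3, and of 0.0970 and 0.0526 without UK-5099 replicates 1 and 2. Over all alternatives the adjusted p ran from 0.00358 to 0.365 for Anxa1 and from 0.00888 to 0.263 for Anxa7.

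**Figure D2:**
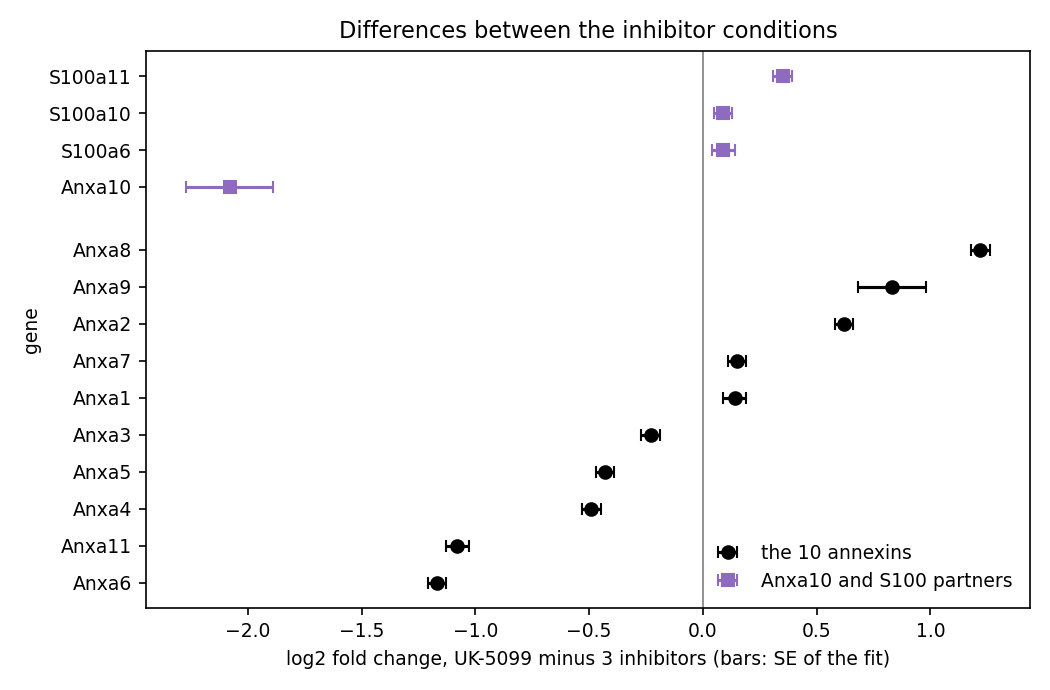
Log2 fold changes (UK-5099 minus 3 inhibitors, bars are SE of the fit) of the 10 annexins, ordered by size, with Anxa10 and 3 S100 partner genes above them. Anxa8 at 1.22 and Anxa6 at -1.17 bound the 10 annexins, Anxa1 and Anxa7 lie near 0, and Anxa10 at -2.08 lies below all of them.

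Among the members that were lower with UK-5099, Anxa6 and Anxa11 fell by more than 2-fold. Anxa6, whose core is duplicated and which acts in endosome traffic and cholesterol transport, had 1813.6, 1830.1 and 1909.7 normalized counts with UK-5099. With the 3 inhibitors it had 4323, 4114.3 and 4040.5. Every 3-inhibitor library was at least 2.12-fold above every UK-5099 library, and the log2 fold change was -1.17 ± 0.04 (2.25-fold, adjusted p = 3.08e-09).

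Anxa11, which tethers RNA granules to lysosomes, had 3031.7, 2846.3 and 3053.3 normalized counts in the UK-5099 libraries and 6546.3, 6019.5 and 6267.7 with the 3 inhibitors. The nearest libraries were 1.97-fold apart. Its log2 fold change was -1.08 ± 0.05 (2.11-fold, adjusted p = 8.07e-09). Anxa11os, a gene named as antisense to Anxa11, was under the filter at 9.22 ± 2.64 and 9.49 ± 2.04 normalized counts (SD, n = 3 each). Whether counting used the strand is not stated.

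Anxa4, found in polarized secretory and absorptive epithelia, held 4584.2, 4593.8 and 4505.1 normalized counts with UK-5099. In the other group it held 6545.3, 6369.8 and 6318. It was 1.41-fold lower with UK-5099 (log2 fold change -0.49 ± 0.04, adjusted p = 7.21e-07), and the groups were 1.38-fold apart at their nearest.

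Anxa5, whose binding to phosphatidylserine made it the standard probe of dying cells, was 1.35-fold lower. Its counts were 5663.2, 5991.5 and 5830.2 with UK-5099 and 7937.8, 8197.3 and 7479.1 in the other group. Every UK-5099 library was below every 3-inhibitor library (log2 fold change -0.43 ± 0.04, adjusted p = 8.16e-06). Anxa3 had the smallest fall, with 15410, 15546 and 16475 normalized counts against 18908, 18577 and 18217. Its log2 fold change was -0.23 ± 0.04 (1.17-fold, adjusted p = 0.000623), and its nearest libraries were 1.11-fold apart. The calls of Anxa2, Anxa3, Anxa4, Anxa5, Anxa6, Anxa8, Anxa9 and Anxa11 held in every alternative fit, with a highest adjusted p of 0.0118, that of Anxa3.

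Levels of different annexins can be compared only per length, so counts were divided by the merged exon length of each gene in GENCODE M21. Anxa1 and Anxa2 led in both conditions. Normalized counts per kb of exon were 35504 ± 383 for Anxa1 in UK-5099 libraries and 32235 ± 908 in 3-inhibitor libraries, and Anxa2 had 31257 ± 197 and 20375 ± 727 (SD, n = 3 each). Anxa8 had rank 5 with the 3 inhibitors, at 3099 ± 82.7 per kb, and rank 3 with UK-5099, at 7231 ± 276. Anxa9 ranked last in both conditions, at 41.1 ± 3.25 and 73.7 ± 11 per kb, and Anxa6 next to last, at 1671 ± 58.9 and 744 ± 20.6.

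Between these ends the order changed. With the 3 inhibitors it ran Anxa3 (7060 per kb), Anxa5 (4547), Anxa8, Anxa4 (3044), Anxa11 (2305), Anxa7 (1965), and Anxa6 followed. With UK-5099 it ran Anxa8, Anxa3 (6011), Anxa5 (3367), Anxa7 (2177), Anxa4 (2166), Anxa11 (1093), and again Anxa6. Neighbours whose libraries overlapped were Anxa8 and Anxa4 with the 3 inhibitors (3003 to 3153 and 3000 to 3108 per kb) and Anxa7 and Anxa4 with UK-5099 (2083 to 2231 and 2139 to 2181 per kb). Anxa8 and Anxa3 trade places with UK-5099 when the longest coding transcript is used as the length (7231 and 9912 per kb), as do Anxa8 and Anxa4 with the 3 inhibitors (3099 and 3158 per kb).

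**Figure D3:**
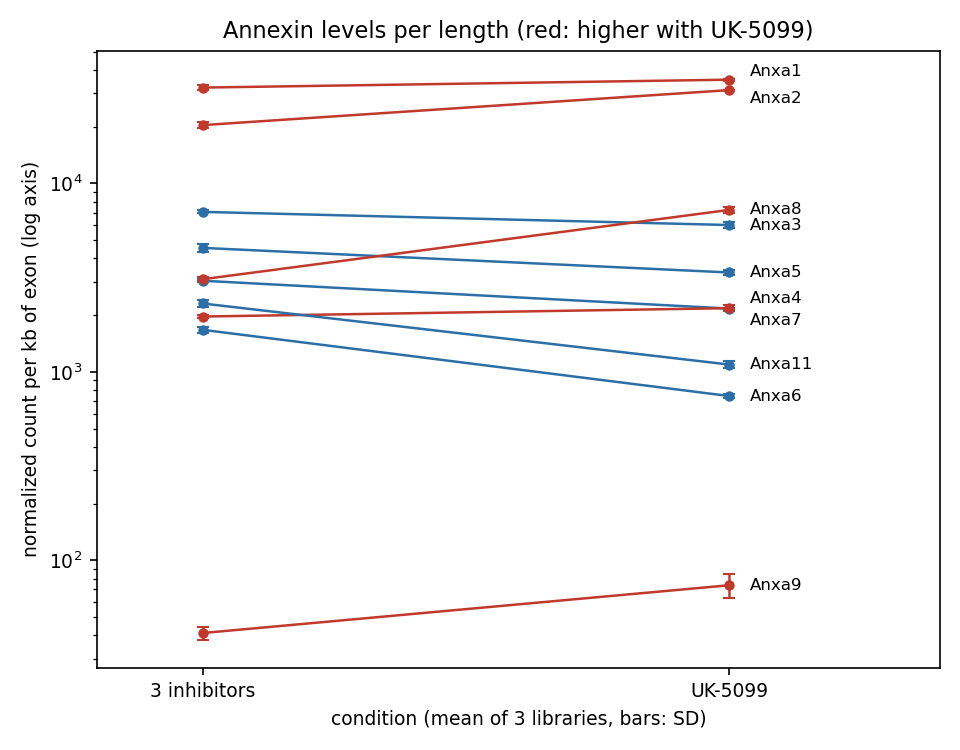
Normalized counts per kb of merged exon (log axis) of each annexin with the 3 inhibitors and with UK-5099, as the mean of 3 libraries with SD bars; red lines rise and blue lines fall toward UK-5099. Anxa8 climbs past Anxa5 and Anxa3 from 3099 to 7231 per kb, while Anxa11 drops below Anxa7.

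As a share of the summed normalized counts, the 10 annexins together held 0.681 ± 0.00578% in UK-5099 libraries and 0.604 ± 0.00775% in 3-inhibitor libraries (SD, n = 3). The groups did not overlap (p = 0.1 in a two-sided exact permutation test, and no lower p is possible with 3 libraries a group). Without Anxa1 and Anxa2, the 8 remaining members summed to 0.213 ± 0.00131% with UK-5099 and 0.229 ± 0.00172% with the 3 inhibitors, the opposite order (exact permutation p = 0.1). Within the annexin total, Anxa2 took 27.6 ± 0.0611% in UK-5099 and 20.2 ± 0.206% in 3-inhibitor libraries, and Anxa8 took 8.30 ± 0.284% and 4.00 ± 0.0198%. The part of Anxa1 was 41.0 ± 0.334% and 41.9 ± 0.389%, and that of Anxa6 was 1.13 ± 0.034% and 2.86 ± 0.0633%.

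S100 and other EF-hand proteins are the best known partners of annexin tails. Of 9 listed, 7 were tested, and 2 were higher, 2 lower and 3 not called (median log2 fold change 0.09, against 0.00 over all genes tested). That is 4 of 7, near the 53.8% called over the table. S100a11, the partner of Anxa1, was higher, at 20130 ± 415 against 15850 ± 704 normalized counts (log2 fold change 0.35 ± 0.04, adjusted p = 4.54e-05). Sri, the sorcin that binds Anxa7 and Anxa11, had a log2 fold change of 0.29 ± 0.05. Lower were S100a1 (-0.83 ± 0.11) and Pdcd6, a calcium sensor that binds Anxa7 and Anxa11 (-0.20 ± 0.04). S100a10, the partner of Anxa2, did not pass the test, at 8237 ± 225 and 7718 ± 265 normalized counts (log2 fold change 0.09 ± 0.04, adjusted p = 0.0786). S100a6, which binds Anxa11, did not either, at 30450 ± 1410 and 28570 ± 1220 (0.09 ± 0.05, adjusted p = 0.147). Both passed it without UK-5099 replicate 3, where their log2 fold changes were 0.11 and 0.13 (adjusted p = 0.0189 and 0.0120). After upper-quartile rescaling both log2 fold changes came to 0.01 (adjusted p = 0.895 and 0.934), and neither gene passed after median centring (adjusted p = 0.927 and 0.96).

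For 3 annexins the balance with an S100 partner gene was compared. The difference of log2 counts, in which scaling between libraries cancels, was 2.47, 2.41 and 2.49 for Anxa2 minus S100a10 in the UK-5099 libraries and 1.97, 1.90 and 1.92 in the 3-inhibitor libraries, a shift of 0.52 toward Anxa2. Anxa11 minus S100a6 was -3.39, -3.43 and -3.24 with UK-5099 and -2.17, -2.27 and -2.12 with the 3 inhibitors, a shift of -1.17. Anxa1 minus S100a11 went from 1.95 ± 0.06 in 3-inhibitor libraries to 1.74 ± 0.03 in UK-5099 libraries, a shift of -0.21 (SD, n = 3). No pair's groups overlapped, and each of the 3 comparisons had an exact permutation p of 0.1 (two-sided, 0.1 after adjustment), which is as low as this design allows. Transcript ratios say nothing of the amounts of protein in a complex.

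**Figure D4:**
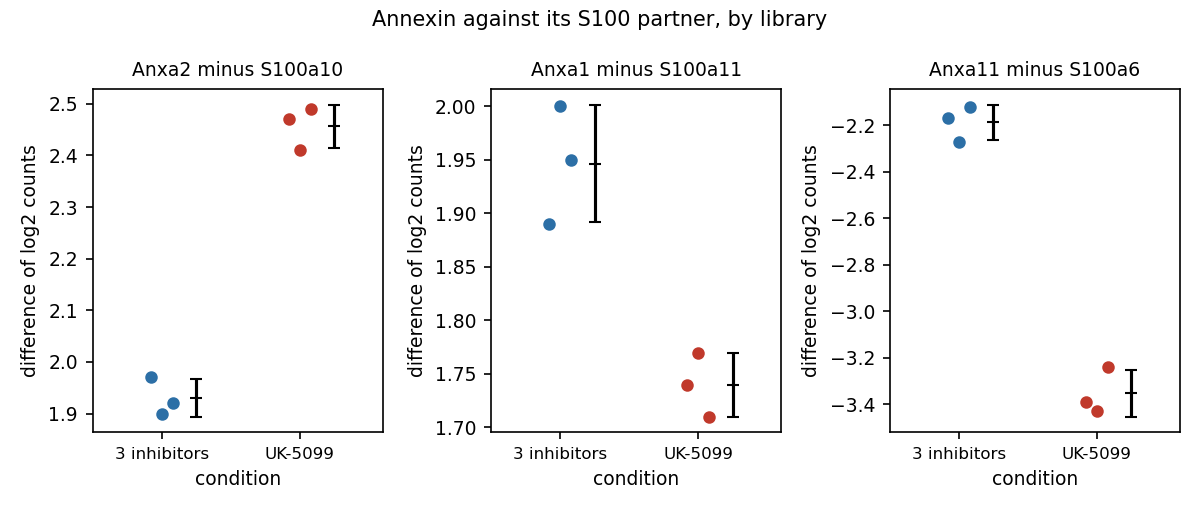
Log2 normalized count of an annexin minus that of its S100 partner in each library (points), with mean and SD beside them; the 3 panels have their own vertical scales. UK-5099 libraries lie above the others for Anxa2 minus S100a10 and below them for Anxa1 minus S100a11 and Anxa11 minus S100a6.

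Genes of plasma membrane repair, the process in which annexins cap a wound before the ESCRT machinery closes it, were called about as often as genes in general. Of 22 listed, 21 were tested, and 11 were called, 5 higher and 6 lower (median log2 fold change 0.05), where 53.8% of all genes tested were called. Smpd1, the acid sphingomyelinase that helps remove damaged membrane, was 2.02-fold lower with UK-5099 (423.5 ± 23.6 against 857.8 ± 31.8 normalized counts, adjusted p = 1.95e-07). Myof, which encodes the membrane-fusion protein myoferlin, was 1.43-fold lower (adjusted p = 1.80e-06). Capn1, a protease activated by calcium at wounds, was 1.39-fold higher (adjusted p = 2.63e-06), and Ehd2, of the necks of caveolae, 1.34-fold higher (adjusted p = 1.02e-05).

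Receptors of secreted Anxa1 were nearly undetected. Of 7 formyl peptide receptor genes, 6 were 0 in every library, Fpr2 among them. Fpr1 had at most 4 reads in a library, and none of the 7 was tested.

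Plasminogen activation at the cell surface, in which Anxa2 and S100a10 serve as a docking site, had 7 of 8 genes tested, 3 higher, 3 lower and 1 not called (median log2 fold change -0.03), beside 53.8% called over all genes. Serpine2, an inhibitor of plasminogen activators and thrombin, had 1807 ± 125 normalized counts in UK-5099 libraries and 352 ± 36.4 in the others, 5.13-fold more (adjusted p = 1.37e-09), and Serpinb2, a further inhibitor of the activators, 1.92-fold higher (adjusted p = 4.96e-08). Plaur, the urokinase receptor, was 1.71-fold lower (adjusted p = 2.08e-07). Plg, which encodes plasminogen itself, was 0 in every library.

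Phospholipase A2 and eicosanoid enzymes form the pathway that Anxa1 was first known to restrain. Of 13 listed, 9 were tested. Pla2g4e, Pla2g4f and Alox12b averaged under 10 normalized counts with the 3 inhibitors and were tested only because of their UK-5099 values, so they had to differ and are given as values alone (Pla2g4f is named after its values were seen). Of the other 6, 4 were higher, 1 lower and 1 not called, where 53.8% of all genes were called and 27.2% were higher. Pla2g4e, a cytosolic phospholipase A2, had 115.8 ± 7.38 normalized counts in UK-5099 libraries and 4.34 ± 1.15 in the others. Alox12b, a lipoxygenase of the skin barrier, stood at 117.1 ± 3.46 with UK-5099 and was listed at 3.1, 0 and 0 in the 3-inhibitor libraries. Ptgs1, the constitutive cyclooxygenase, was 2.66-fold higher (adjusted p = 5.30e-08) and Pla2g4a, which releases arachidonic acid, 1.56-fold higher (adjusted p = 1.92e-06). The 1 lower gene, Ptges, which makes prostaglandin E2, fell by 0.56 on the log2 scale (SE 0.06, adjusted p = 1.30e-05) and was named after its value was seen.

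Genes whose pattern over the 6 libraries was closest to that of Anxa8, by root-mean-square difference of centred log2 values, were Gsdmc2 (0.014), Tmem154 (0.035) and Hr (0.038). Closest to Anxa6 were Golm1 (0.033), Pnpla2 (0.036) and Cldn7 (0.038). Since the step between the groups makes up most of each pattern, these are largely the genes of like fold: Gsdmc2 was 2.33-fold higher with UK-5099 and Golm1 2.32-fold lower. Gsdmc2 is 1 of several close gasdermin C copies, among which reads can be split, so its own level is uncertain.

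Some other features of the cultures also differed between the groups, and some did not. Basal markers (Krt5, Krt14, Krt15, Trp63 and Ngfr) were all present and summed to 239000 to 262000 normalized counts per UK-5099 library and 106000 to 118000 per 3-inhibitor library. Krt5, Krt14 and Trp63 were higher with UK-5099, Ngfr was lower and Krt15 was not called. The 5 secretory markers, of which 3 were tested, summed to 1110 to 1730 and 4620 to 4990, nearly all of it Cyp2f2 (means of 1350 and 4595). Scgb1a1 was 4.56-fold lower with UK-5099 but added little to the sums (36.5 and 170.9). Muc5b averaged 8.13 with UK-5099 and was tested only through the other group (29.6). Multiciliated markers summed to 46.4 to 57.9 and 50.9 to 79.5, and smooth muscle markers to 13.9 to 30.4 and 22.3 to 29.2. Fibroblast markers summed to at most 14.6, with Col1a2, Col3a1 and Lum at 0 throughout. Endothelial markers summed to 56.9 to 75.2 and 132 to 152 (Cdh5 at 0), a difference carried by Vwf (49.9 and 126.8). Glial and neuronal markers summed to 37.6 to 49.9 and 18.6 to 27.7. Leukocyte markers summed to 488 to 702 and 497 to 541, nearly all of it Cd68, which was not called. The rest were under the filter. Of them, Lyz2 had 0, 0.9 and 0 normalized counts with UK-5099 and 11.3, 20.6 and 9.1 with the 3 inhibitors. Csf1r and Cd79a were 0 in every UK-5099 library and averaged 6.98 and 5.39 in the others. Ptprc, Cd3e and Itgam overlapped between the groups. Xist, the RNA that coats the inactive X chromosome, differed as well, being 1.70-fold more abundant in UK-5099 libraries, while the Y-linked Ddx3y was 1.76-fold lower. The part of any of these in the annexin differences was not tested, and in bulk RNA fewer cells of a type cannot be told apart from less RNA per cell. Recovered reads per library ranged from 19909589 to 27037795.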

How the data were processed

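RNA was sequenced in 6 libraries of cultured mouse airway basal cells, 3 per group. The deposited table holds, for each gene and library, the log2 of a read count divided by a size factor, and zeros appear as a spreadsheet error string. HISAT2 2.1.0, DESeq2 1.36.0 and build GRCm39 are listed, with no role, per the submitters' processing notes. Counting tool and annotation: not given in the sources used here. Columns were matched to libraries by treatment and replicate number.

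Values were raised from log2 to normalized counts, and 359 of the 57107 entries that repeated an identifier were dropped. Dividing by the step of each library gave whole reads (within 0.02) for 99.988% to 99.992% of nonzero values. Genes whose normalized counts averaged 10 or more were fitted as log2(normalized count + 1) with limma 3.58.1 (trend, two-sided) in R 4.3.3, without covariates. P-values were adjusted over all 15704 genes by Benjamini-Hochberg. Fold changes are on that log2 scale and understate those of low genes. Single values were compared by exact permutation tests (scipy 1.17.1). The limma fit was also run on simulated counts with known size factors, in which far fewer genes changed than were called here. That run did not test the scaling between libraries. Exon lengths came from GENCODE M21 (GRCm38), another build than the authors', and were used for lengths only; upstream sequences came from RefSeq.

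Members and lists were chosen with earlier results of these data known. Named genes are all members, up to 4 called genes of each list by adjusted p, S100a10, S100a11 and S100a6, the genes of lists of 4 or fewer, and 3 neighbours each of the members with the largest rise and fall. A gene that the rule names is not reported here. Genes of the marker paragraph are outside that rule.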

Additional observations from a re-analysis of the deposited data

How the results depend on the processing

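The 10 annexins called became 3 when a change of at least 2-fold was also required, and the 46 partner genes called, of 66 tested, became 12. Among all 15704 genes tested, 8449 (53.8%) were called and 1593 (10.1%) were left at 2-fold. Both partner counts include Pla2g4e, Pla2g4f, Alox12b, Mertk and Pros1, which were tested only through their higher group. In the other alternatives 8 to 10 annexins were called: 8 after median centring or upper-quartile rescaling and at an adjusted p under 0.01, 9 without the variance trend, and 8 to 10 when 1 library was left out. No annexin changed direction. Of 160 recomputed annexin fold changes 149 kept their side of the threshold, and the 11 that did not were those of Anxa1 and Anxa7. For the other 32 named genes it was 510 of 512. Between settings, the group differences of the partner ratios and of the annexin share moved by less than the spread between libraries. Leaving out 1 of 3 libraries cannot move a group mean by as much as that spread. Another constant added before the log hardly changes ratios of counts this high. The small moves therefore say little about stability. Limma-voom on the recovered reads called 8570 genes and the same number of annexins, 10. Same-numbered libraries deviated from their group means with correlations of -0.017, 0.116 and -0.089, and not every library correlated best with its own number. With 3 libraries a group, this cannot decide whether equal numbers mark a shared animal or day. With the replicate block 8423 genes and 10 annexins were called. Among the 10 annexins, depth limits Anxa9 most, with 80 reads in its lowest library. Anxa10, outside the 10, had 20.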

Other observations

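Phosphatidylserine, the lipid that annexins bind, is moved to the outer face of the membrane by scramblases and back by flippases. Of 21 genes of this exposure and its receptors, 17 were tested. Mertk and Pros1, named after their values were seen, averaged under 10 normalized counts in 1 group and were tested only through the other. Of the remaining 15, 5 were higher with UK-5099, 6 lower and 4 not called, beside 53.8% called over all genes. Mfge8, a secreted bridge between exposed phosphatidylserine and phagocytes, had 1695 ± 17.6 normalized counts in UK-5099 libraries and 4211 ± 184 in the others (SD, n = 3), 2.48-fold fewer (adjusted p = 1.31e-09). Atp11a, a flippase, was 1.92-fold lower (adjusted p = 5.06e-08) and Plscr1, a phospholipid scramblase, 1.79-fold lower (adjusted p = 2.37e-07). The receptor kinase Axl was 1.63-fold higher (adjusted p = 1.01e-06).

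Copines, a separate family that binds phospholipids in a calcium-dependent way, had 4 of 9 genes tested and 3 called, too few to set against the 53.8% called over all genes. Cpne2 was 1.59-fold higher with UK-5099 (adjusted p = 3.86e-06), and Cpne3 and Cpne8 were 1.47-fold and 1.21-fold lower (adjusted p = 1.73e-06 and 0.00144). Of the annexins outside the 10, Anxa13 was 0 in every library, and Anxa10, known from gastric epithelium, had 30.5, 26.0 and 24.4 normalized counts with UK-5099 and 112.4, 137.6 and 103.2 with the 3 inhibitors. That was a 4.24-fold difference (adjusted p = 2.52e-06) on 20 to 154 reads per library.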
